A study of Mus musculus with 6 samples.

Results

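The genes described here are 47 mitosis and spindle checkpoint genes, a hand-written list of G2/M cyclins, mitotic kinases, kinesins, kinetochore and condensin subunits and cytokinesis genes. The list was written by gene function, with earlier results of these data known, and its symbols were matched by name to the Ensembl IDs of the count files, which hold 56748 IDs. All 47 were found, and all 47 were among the 21849 genes with enough counts to be tested. The libraries were polyA RNA-seq of bone marrow-derived dendritic cells (BMDCs), that is, mouse bone marrow cells grown in the cytokine GM-CSF, which drives myeloid differentiation, with IL-4 added later to favour dendritic cells. They came from WT mice and from Nfkb2-/- mice, which lack the gene for an NF-κB precursor of the noncanonical pathway in every cell of the body, so the bone marrow progenitors lacked it as well. There were 3 libraries of each genotype. Cultures of both genotypes ran for 9 days, 5 in 20 ng/mL GM-CSF and 4 in GM-CSF with 10 ng/mL IL-4, non-adherent cells were collected and no stimulus was given. The study describes the libraries of a genotype as independent biological replicates, and the p-values measure the spread between them. The age and sex of the mice and whether each library came from a separate mouse are not given in the sources used here.

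Mitosis begins when the kinase Cdk1, bound to B-type cyclins, phosphorylates its substrates at the end of the G2 phase. The spindle checkpoint then holds the anaphase-promoting complex (APC/C) in check until kinetochores, the protein plates on centromeres, are bound by spindle microtubules, after which securin and cyclin B are degraded and the sister chromosomes part. Transcripts of these genes are low in cells that have left the cell cycle and accumulate together in G2 and M, under the control of the B-Myb and FoxM1 transcription factors. In bone marrow cultures with GM-CSF, dividing progenitors give rise to dendritic cells that divide little once mature. In bulk RNA, more cells of a dividing type and more of these transcripts per dividing cell cannot be told apart.

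Library depth ran from 29863927 to 55623068 counts, and a single member of the list had between 4 and 21357 counts in a library. Nfkb2 itself was at 215, 154 and 355 CPM (a gene's count scaled to the size and composition of its library) in WT replicates 1, 2 and 3 and at 44.8, 32.3 and 32.6 CPM in the Nfkb2-/- replicates, so each library matched its label. All 12 dendritic cell markers on a fixed list were detected in every library. Nfkb2-/- replicate 1 stood apart, with 47952 genes that had a count against 27692 to 33841 in the others, so results are also given without it.

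Every one of the 47 genes had a higher fitted level in Nfkb2-/- than in WT BMDCs, and 2 of them passed the test, the checkpoint gene Mad2l1 and the kinase gene Plk1. The median log2 fold change (Nfkb2-/- over WT) of the members was 1.59, with a range from 0.20 for Pttg1 to 2.37 for Plk1, whereas the median over all genes tested was 0.08. Over all genes tested, 55.7% had a log2 fold change above 0. Genotypes were compared by the quasi-likelihood F-test of edgeR, p-values were adjusted across the whole table by Benjamini-Hochberg, and a call required an adjusted p under 0.05 and a fold change over 1.2. By this rule 0.453% of all genes tested were called higher in Nfkb2-/-, and none of the 47 members was called lower. In 39 members all 3 Nfkb2-/- libraries lay above all 3 WT libraries, a pattern found in 12.7% of all genes tested and in 14.8% of the 15316 genes that averaged 1 CPM or more. The 8 members whose genotypes overlapped were Cdc25b, Pttg1, Kif23, Ect2, Cenpa, Cenpf, Spc25 and Smc2. Before adjustment, 41 members had a p under 0.05, which was the case, in the higher direction, for 9.03% of all genes tested.

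How many members were called depended on the test. DESeq2 called 37 of the 47 higher (4.33% of all genes tested were called higher) and limma voom called 8 (1.12% of all genes). The same edgeR test without WT replicate 2 called 40 members (3.2% of genes), and without any 1 of the other 5 libraries it called none, although all 47 fold changes stayed above 0 in each of these fits and 20 to 46 members had an unadjusted p under 0.05 (in the higher direction, 5.51% to 11.2% of all genes tested). Over all genes and both directions, 270 were called without WT replicate 3, and 0 without WT replicate 1 or any Nfkb2-/- replicate. In the fit without Nfkb2-/- replicate 1, the median log2 fold change of the members was 1.73 and 33 members had an unadjusted p under 0.05, against 10.4% of all genes tested in that direction. Among the 5 libraries left, 46 members showed no overlap between the genotypes, as did 21.3% of all genes in that direction, and fewer libraries by themselves make such a gap more frequent.

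The WT libraries differed among themselves in the same genes. Summed over the 47 members, the level was 539 CPM in WT replicate 1, 1245 CPM in replicate 2 and 380 CPM in replicate 3, against 1579, 2162 and 2413 CPM in Nfkb2-/- replicates 1, 2 and 3. The means were 721 ± 461 CPM in WT and 2051 ± 428 CPM in Nfkb2-/- (SD, n = 3 each). WT replicate 2 was the highest WT library for all 47 members, and the lowest of all 6 libraries was WT replicate 3 for 42 members and WT replicate 1 for the other 5. Nfkb2-/- replicate 3 was the highest library for 41 members. The level in WT replicate 2 was a median of 4.41 times that in WT replicate 3, from 1.07 times for Pttg1 to 22.8 times for Cdc25c, whose lowest library had 4 counts. The 3 Nfkb2-/- libraries lay closer together, with the highest a median of 1.37 times the lowest. The SD of log2 CPM among WT libraries had a median of 1.10 over the members and of 0.276 over genes of at least 1 CPM, while among Nfkb2-/- libraries it was 0.237 and 0.229. In all, 44 of the 47 members had the larger SD in WT. The lowest Nfkb2-/- library was a median of 1.37 times the highest WT library, with a range from 0.673 for Spc25 to 2.71 for Plk1.

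**Figure D1:**
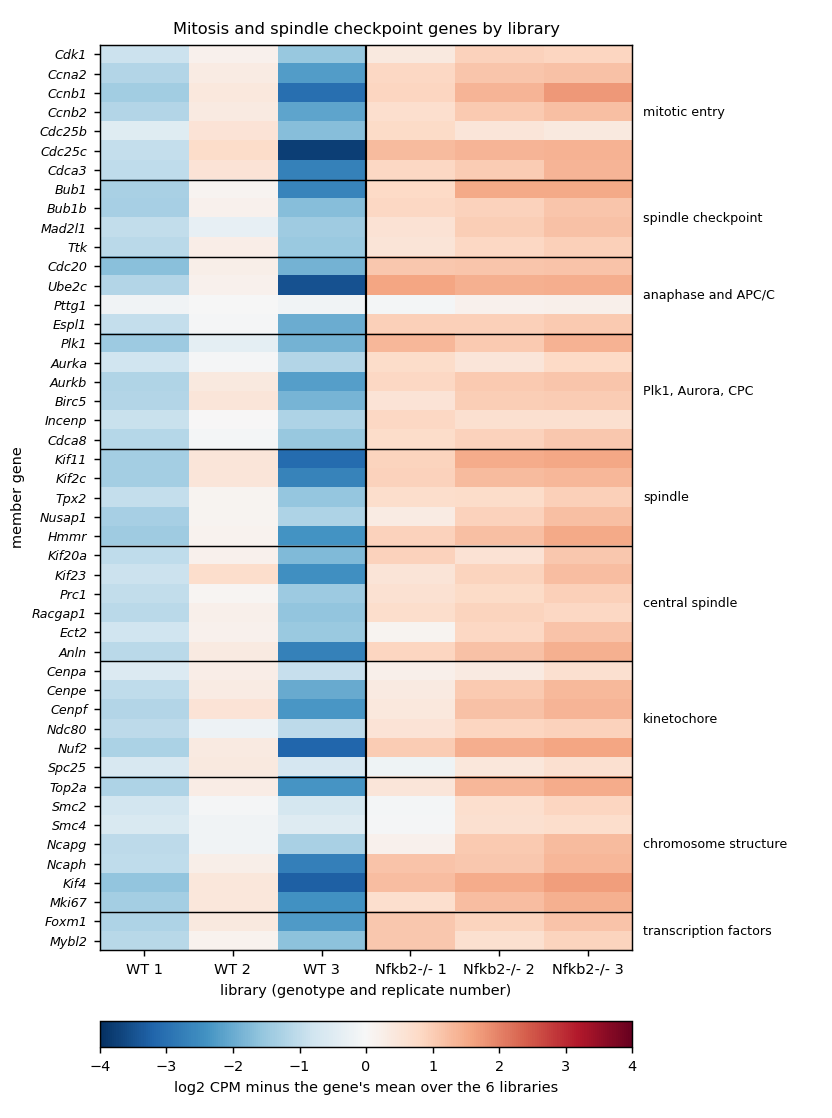
Heat map of the 47 members (rows, grouped by role) in the 6 libraries (columns). Colour shows the log2 CPM of a gene minus its mean over the 6 libraries, blue below and red above. WT replicate 3 is lowest for 42 members, WT replicate 2 is the highest WT library for all 47, and Nfkb2-/- replicate 3 is highest for 41.

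Promoters of the members were examined because genes of this class are known to share a pair of elements near their start. One is the cell cycle genes homology region (CHR), bound by the MuvB complex, which acts as a repressor within the DREAM complex in resting cells and as an activator together with B-Myb and FoxM1 in dividing cells. The other is the CCAAT box, bound by the factor NF-Y. RefSeq promoters (GRCm38.p6) matched 39 of the 47 members, with 41 promoters in all, while Ccna2, Cdc25c, Aurkb, Incenp, Tpx2, Kif20a, Smc4 and Foxm1 had no entry. The window searched ran from 100 bases before to 50 bases after the annotated start, on both strands, for TTTGAA or TTCGAA (CHR) and for CCAAT, and matches of the different motifs could overlap. A CHR was present in 31 of the 41 member promoters (75.6%) and in 8.59% of all 32851 promoters of the table. A CCAAT box was present in 65.9% of the member promoters and in 23.4% of all promoters, and both motifs in 61.0% and 2.09%. Of 33 CHR matches in member promoters, 31 began between 30 bases before the start and 50 bases after it, with a median at base 8 counted from the start base as 1. The promoter windows of Ect2 overlap each other, as do those of Prc1, so the same CHR of each of these genes was counted more than once. The median log2 fold change was 1.59 for the 29 members with a CHR in the window and 1.65 for the 10 members without it, which include Mad2l1, Ccnb1 and Pttg1. Among those without it, the windows of Mad2l1, Mybl2, Kif2c and Pttg1 did not contain the gene's outermost start in GENCODE M21. The same held for Cenpa, Cdca3, Cdca8 and Kif4 among those with a CHR. A motif nearer those starts would be missed here. The motif matches describe the letters in the window and were not tested for binding.

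The promoters printed here belong to Plk1, which was called, and to the most abundant member of a role group per exonic length where that member's promoter holds a CHR, so that the placement of the motifs around the start can be seen. The promoter of Mad2l1 is added because the gene was called and its window holds neither motif. That window ends upstream of the gene's start in GENCODE M21 (base 66535390), so it cannot show whether motifs lie nearer that start. Each promoter is written from 5′ to 3′ on the strand of its gene with the annotated start at base 101, and capitals mark a CHR or a CCAAT box in either orientation. The windows are chr7:122159335-122159484 (plus strand) for Plk1, chr9:70421505-70421654 (minus) for Ccnb2, chr2:127831810-127831959 (minus) for Bub1, chr2:164769829-164769978 (plus) for Ube2c, chr2:69206164-69206313 (minus) for Spc25, chr3:27153829-27153978 (minus) for Ect2 and chr6:66535121-66535270 (plus) for Mad2l1, all in GRCm38.
Plk1: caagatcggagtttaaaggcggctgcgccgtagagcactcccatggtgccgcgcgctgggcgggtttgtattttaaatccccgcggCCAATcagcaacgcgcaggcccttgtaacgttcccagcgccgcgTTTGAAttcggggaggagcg
Ccnb2: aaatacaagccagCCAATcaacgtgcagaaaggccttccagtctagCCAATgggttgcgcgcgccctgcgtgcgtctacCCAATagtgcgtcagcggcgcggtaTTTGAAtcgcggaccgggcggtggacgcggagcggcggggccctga
Bub1: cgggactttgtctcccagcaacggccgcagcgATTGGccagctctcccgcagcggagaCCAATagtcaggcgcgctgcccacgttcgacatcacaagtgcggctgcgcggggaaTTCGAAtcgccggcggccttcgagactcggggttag
Ube2c: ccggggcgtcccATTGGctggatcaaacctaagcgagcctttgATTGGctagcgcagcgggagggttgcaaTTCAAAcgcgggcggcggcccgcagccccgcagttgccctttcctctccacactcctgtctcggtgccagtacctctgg
Spc25: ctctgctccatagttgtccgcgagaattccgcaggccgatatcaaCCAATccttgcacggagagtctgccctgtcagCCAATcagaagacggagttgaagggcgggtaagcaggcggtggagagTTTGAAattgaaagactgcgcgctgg
Ect2: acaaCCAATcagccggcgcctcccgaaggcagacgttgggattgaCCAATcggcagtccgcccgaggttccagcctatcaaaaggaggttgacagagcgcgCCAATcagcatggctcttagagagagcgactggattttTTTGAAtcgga
Mad2l1: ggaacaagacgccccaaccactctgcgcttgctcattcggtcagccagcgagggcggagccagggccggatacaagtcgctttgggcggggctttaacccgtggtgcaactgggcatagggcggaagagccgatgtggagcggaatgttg
In Plk1 the CHR began at base 31 after the start and the CCAAT box 14 bases before it. In Ube2c the CHR lay 29 bases before the start, and in Ccnb2 it followed 3 CCAAT boxes. Spc25, whose genotypes overlapped, held a CHR and 2 CCAAT boxes, as Bub1 did.

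**Figure D2:**
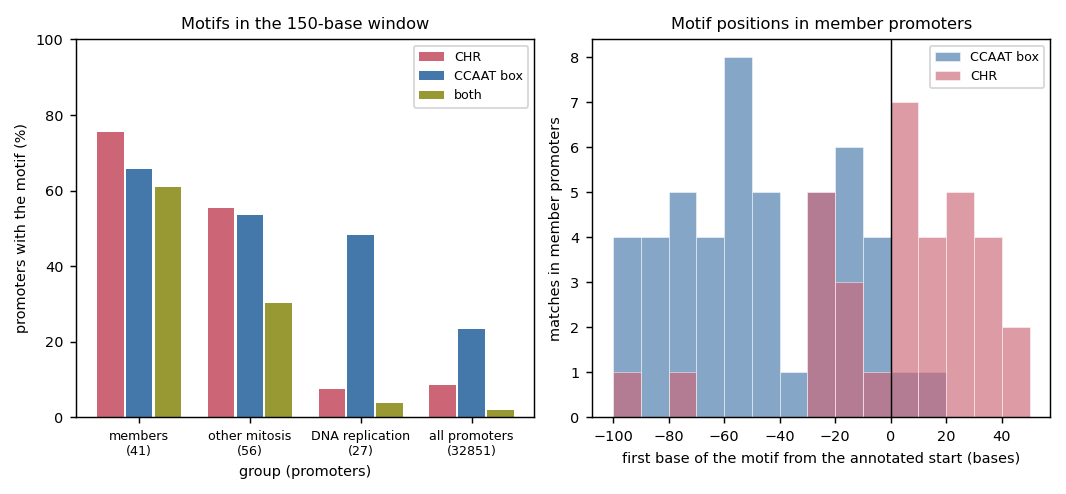
Left, percentage of promoters with a CHR, a CCAAT box or both in the 150-base window, for the members, other mitosis genes, DNA replication genes and all promoters. Right, number of matches in the 41 member promoters by the distance of the first base from the annotated start (10-base bins). A CHR is present in 75.6% of member promoters, 55.4% of those of other mitosis genes, 7.41% of those of DNA replication genes and 8.59% of all promoters.

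In what follows, CPM values of a gene are listed for replicates 1, 2 and 3 of each genotype, and each adjusted p is that of edgeR across the whole table. Among the 7 genes of mitotic entry, none was called by edgeR (5 had an unadjusted p under 0.05), 4 by DESeq2 and none by limma voom, and 6 showed no overlap between the genotypes. Their log2 fold changes ran from 0.83 for Cdc25b to 2.06 for Ccnb1, a B-type cyclin. Cdk1, the kinase that drives entry into mitosis, was at 9.46, 19.4 and 5.99 CPM in WT and at 22.4, 32.2 and 31.3 CPM in Nfkb2-/-. The genotypes did not overlap, and WT replicate 2 came close to Nfkb2-/- replicate 1. The log2 fold change of Cdk1 was 1.30 (SE 0.41, n = 3 each, adjusted p = 0.172 by edgeR). Ccnb2, the other B-type cyclin of the list and the most abundant gene of the group per exonic length, was at 6.71, 19.5 and 3.48 CPM in WT and at 23.9, 31.1 and 34.3 CPM in Nfkb2-/-, again without overlap. Its log2 fold change was 1.59 (SE 0.57, adjusted p = 0.214 by edgeR). Cdc25b and Cdc25c encode phosphatases that remove the inhibitory phosphates from Cdk1. Cdc25b, at 6.71, 13.7 and 2.93 CPM in WT and 16.0, 13.3 and 12.3 CPM in Nfkb2-/-, was the member of this group that overlapped. The other 3 were Ccna2, the S and G2 phase cyclin, Cdc25c and Cdca3, with log2 fold changes of 1.69, 1.74 and 1.59.

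All 4 genes of the spindle checkpoint lay higher in each Nfkb2-/- library than in any WT library, and Mad2l1 was called by edgeR and limma voom and all 4 by DESeq2. Mad2l1 encodes Mad2, the protein that binds and holds back the APC/C activator Cdc20 at unattached kinetochores. It was at 17.9, 28.1 and 13.0 CPM in WT (mean 19.7 ± 7.71, SD) and at 52.8, 69.7 and 78.8 CPM in Nfkb2-/- (mean 67.1 ± 13.2). The lowest Nfkb2-/- library was 1.88 times the highest WT library. Mad2l1 rose by 1.77 on the log2 scale (SE 0.30, adjusted p = 0.0494 by edgeR), close to the threshold. Over the alternatives its adjusted p ran from 2.13e-07 to 0.228, and without 1 library other than WT replicate 2 it lay between 0.0590 and 0.228. Bub1, a kinase that brings checkpoint proteins to the kinetochore, was the most abundant of the 4 per exonic length. It was at 6.69, 17.9 and 2.68 CPM in WT and at 28.7, 47.0 and 47.8 CPM in Nfkb2-/-, a log2 fold change of 2.18 (SE 0.62, adjusted p = 0.142 by edgeR). Bub1b, which encodes the Cdc20 inhibitor BubR1, and Ttk, which encodes the kinase Mps1 at the top of the checkpoint, had log2 fold changes of 1.68 and 1.36. Mad2l1 had a smaller spread among WT libraries (SD of log2 CPM 0.557) than Bub1 (1.36).

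The 4 genes of anaphase and the APC/C held the smallest fold change of the list beside one of the largest. None was called by edgeR, while 3 had an unadjusted p under 0.05, 3 were called by DESeq2 and 2 by limma voom. Ube2c encodes the ubiquitin-conjugating enzyme that works with the APC/C. It was at 6.26, 15.9 and 1.24 CPM in WT and at 42.1, 37.2 and 38.6 CPM in Nfkb2-/-, so the Nfkb2-/- libraries lay close together and the WT libraries did not. Its log2 fold change was 2.33 (SE 0.73, adjusted p = 0.171 by edgeR), below that of Plk1 alone. Espl1, the gene of separase, the protease that cuts cohesin at anaphase, was at 4.10, 7.75 and 2.03 CPM in WT and at 15.3, 15.5 and 16.6 CPM in Nfkb2-/-. The lowest Nfkb2-/- library was 1.97 times the highest WT library, with a log2 fold change of 1.77 (SE 0.43, adjusted p = 0.105 by edgeR). Pttg1 encodes securin, which holds separase inactive until anaphase. In contrast to Espl1, it was at 8.92, 9.63 and 8.98 CPM in WT and at 9.31, 11.0 and 11.4 CPM in Nfkb2-/-, with overlap between the genotypes and a log2 fold change of 0.20 (SE 0.16, adjusted p = 0.569 by edgeR). Pttg1 also varied least among WT libraries, where the SD of log2 CPM was 0.0607. The remaining gene, Cdc20, the APC/C activator that the checkpoint restrains, had a log2 fold change of 1.88 and no overlap.

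Plk1, the Aurora kinase genes and the chromosomal passenger complex made up 6 genes, none of which overlapped between the genotypes. Plk1 encodes Polo-like kinase, which acts in centrosome maturation, kinetochore attachment and cytokinesis. It was at 1.95, 4.09 and 1.45 CPM in WT (mean 2.49 ± 1.41, SD) and at 13.4, 11.1 and 14.1 CPM in Nfkb2-/- (mean 12.9 ± 1.59). The gap between the genotypes was the widest of the list, with the lowest Nfkb2-/- library at 2.71 times the highest WT library. Plk1 rose by 2.37 on the log2 scale (SE 0.39, adjusted p = 0.0444 by edgeR). Over the alternatives its adjusted p ran from 1.24e-10 to 0.213, and without 1 library other than WT replicate 2 from 0.0503 to 0.213. Incenp, the scaffold of the passenger complex and the most abundant of the group per exonic length, was at 14.7, 27.1 and 11.4 CPM in WT and at 48.3, 42.5 and 41.9 CPM in Nfkb2-/-. Its log2 fold change was 1.32 (SE 0.31, adjusted p = 0.0996 by edgeR). The other passenger genes, Aurkb (Aurora B kinase), Birc5 (survivin) and Cdca8 (borealin), had log2 fold changes of 1.61, 1.36 and 1.71, and Aurka, the Aurora kinase of the spindle poles, had 1.27.

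Among the 5 spindle genes none overlapped, and none was called by edgeR or limma voom, while all 5 had an unadjusted p under 0.05 by edgeR and DESeq2 called 4. Tpx2, which activates Aurora A on spindle microtubules, was at 14.7, 30.6 and 9.77 CPM in WT and at 45.8, 46.8 and 55.5 CPM in Nfkb2-/-. Its log2 fold change was 1.43 (SE 0.39, adjusted p = 0.132 by edgeR). Nusap1, a microtubule-bundling protein and the most abundant of the group per exonic length, was at 12.2, 32.8 and 12.9 CPM in WT and at 38.8, 57.9 and 71.0 CPM in Nfkb2-/-. Here WT replicates 1 and 3 were close and replicate 2 stood above both, and the log2 fold change was 1.53 (SE 0.43, adjusted p = 0.135 by edgeR). The motor genes Kif11, whose product pushes spindle poles apart, and Kif2c, a microtubule depolymerase, had log2 fold changes of 2.01 and 1.82, and Hmmr, a spindle pole protein, had 2.08. In Kif11 the WT libraries ranged from 3.54 to 41.3 CPM.

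Of the 6 central spindle and cytokinesis genes, Kif23 and Ect2 overlapped and the other 4 did not. None was called by edgeR or limma voom, 5 had an unadjusted p under 0.05 by edgeR and DESeq2 called 5. Prc1 bundles the microtubules between the separating chromosomes. It was at 8.28, 17.3 and 5.92 CPM in WT and at 24.9, 27.7 and 31.3 CPM in Nfkb2-/-, a log2 fold change of 1.41 (SE 0.38, adjusted p = 0.125 by edgeR). Ect2, the exchange factor that activates RhoA at the cleavage furrow, was at 12.3, 24.3 and 7.71 CPM in WT and at 23.4, 38.5 and 47.2 CPM in Nfkb2-/-. The overlap came from WT replicate 2 and Nfkb2-/- replicate 1, which lay within 1 CPM of each other, and the log2 fold change was 1.30 (SE 0.44, adjusted p = 0.197 by edgeR). Kif23 and Racgap1, the partners of the centralspindlin complex, had log2 fold changes of 1.26 and 1.42, Kif20a, a kinesin of the midzone, had 1.52, and Anln, the actin-binding anillin of the cleavage furrow, had 1.82.

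Of the 6 centromere and kinetochore genes, 3 overlapped between the genotypes and none was called by edgeR, where 4 had an unadjusted p under 0.05, while DESeq2 called 3 and limma voom 1. Ndc80 and Nuf2 form one arm of the complex that grips spindle microtubules, and Spc25 belongs to the arm that anchors it to the chromosome. Ndc80 was at 5.53, 10.0 and 5.54 CPM in WT and at 16.7, 20.8 and 22.0 CPM in Nfkb2-/-, with the lowest Nfkb2-/- library at 1.66 times the highest WT library. Its log2 fold change of 1.50 (SE 0.28) missed the threshold, with an adjusted p of 0.0569 by edgeR. Spc25, the most abundant of the group per exonic length, was at 11.9, 24.7 and 11.9 CPM in WT and at 16.6, 25.4 and 29.3 CPM in Nfkb2-/-. WT replicate 2 lay above Nfkb2-/- replicate 1, and the log2 fold change was 0.56 (SE 0.35, adjusted p = 0.467 by edgeR). Nuf2 had a log2 fold change of 2.10. The remaining subunit of the complex, Spc24, which is not a member but stands among the further mitosis genes described later, was at 0.569, 1.88 and 0.138 CPM in WT and at 3.13, 2.57 and 3.16 CPM in Nfkb2-/-, without overlap (log2 fold change 1.77, SE 0.75, adjusted p = 0.287 by edgeR). The fold changes of the complex thus spanned 0.56 to 2.10 on the log2 scale, a difference that was not tested. Cenpa, the histone H3 variant of centromeres, had 0.73 with overlap, Cenpf 1.56 with overlap, and Cenpe, the kinetochore motor, 1.54 without.

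The 7 genes of chromosome structure and condensin held the most abundant transcripts of the list. None was called by edgeR or limma voom, while all 7 had an unadjusted p under 0.05 by edgeR and were called by DESeq2. Per exonic length, Smc4 led with 29.6 CPM per kb over the 6 libraries, followed by Mki67 with 21.3, Smc2 with 13.1, Ccnb2 of the entry group with 13.0 and Top2a with 12.3, while Cdc25c was lowest with 0.626. Smc4 and Smc2 are the core of both condensin complexes, which compact mitotic chromosomes, and they also serve outside mitosis. Smc4 was at 93.9, 132 and 101 CPM in WT and at 139, 225 and 234 CPM in Nfkb2-/-. Nfkb2-/- replicate 1 lay just above WT replicate 2, and the log2 fold change was 0.87 (SE 0.24, adjusted p = 0.135 by edgeR), for Smc2 1.0 with overlap. Ncapg, a subunit of condensin I alone, was at 13.0, 24.5 and 11.0 CPM in WT and at 30.5, 55.4 and 65.6 CPM in Nfkb2-/-. Its log2 fold change was 1.64 (SE 0.39, adjusted p = 0.0974 by edgeR), and Ncaph, the kleisin of the same complex, had 1.90. Top2a, the topoisomerase that untangles sister chromosomes, had 1.85, the chromosome-bound kinesin Kif4 had 2.20, and Mki67, the Ki-67 antigen used as a marker of dividing cells, had 1.77. Mki67 was at 58.5, 205 and 27.9 CPM in WT and at 240, 354 and 400 CPM in Nfkb2-/-, so WT replicate 2 was nearer to Nfkb2-/- replicate 1 than to either of the other WT libraries.

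Both transcription factor genes of the list were without overlap and neither was called by edgeR or limma voom, while each of the 2 had an unadjusted p under 0.05 by edgeR and was called by DESeq2. Foxm1 was at 4.08, 12.4 and 1.96 CPM in WT and at 20.1, 17.8 and 21.1 CPM in Nfkb2-/-, a log2 fold change of 1.68 (SE 0.59, adjusted p = 0.209 by edgeR). Mybl2, the gene of B-Myb, was at 1.97, 4.71 and 1.38 CPM in WT and at 8.89, 6.59 and 7.86 CPM in Nfkb2-/-, a log2 fold change of 1.53 (SE 0.44, adjusted p = 0.145 by edgeR). In both genes Nfkb2-/- replicate 2 was the lowest of its genotype, unlike in 38 of the 47 members, where replicate 1 was.

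**Figure D3:**
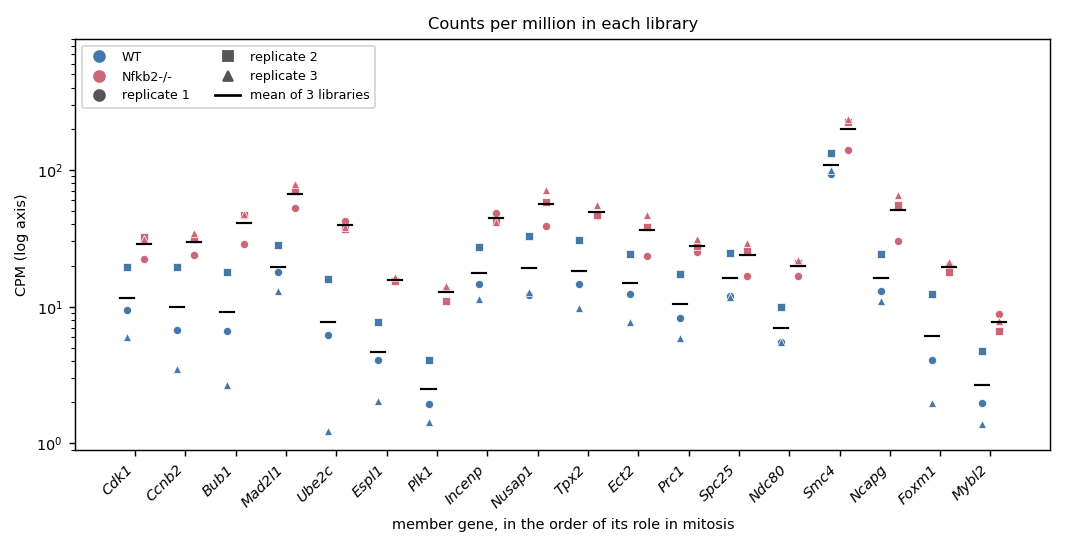
CPM (log axis) of 18 members in each library, ordered by role. Blue marks are WT and red marks Nfkb2-/-, the shape gives the replicate number and the black line the mean of 3 libraries. The widest gap between genotypes is that of Plk1, where the lowest Nfkb2-/- library is 2.71 times the highest WT library, and Ect2 and Spc25 overlap.

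**Figure D4:**
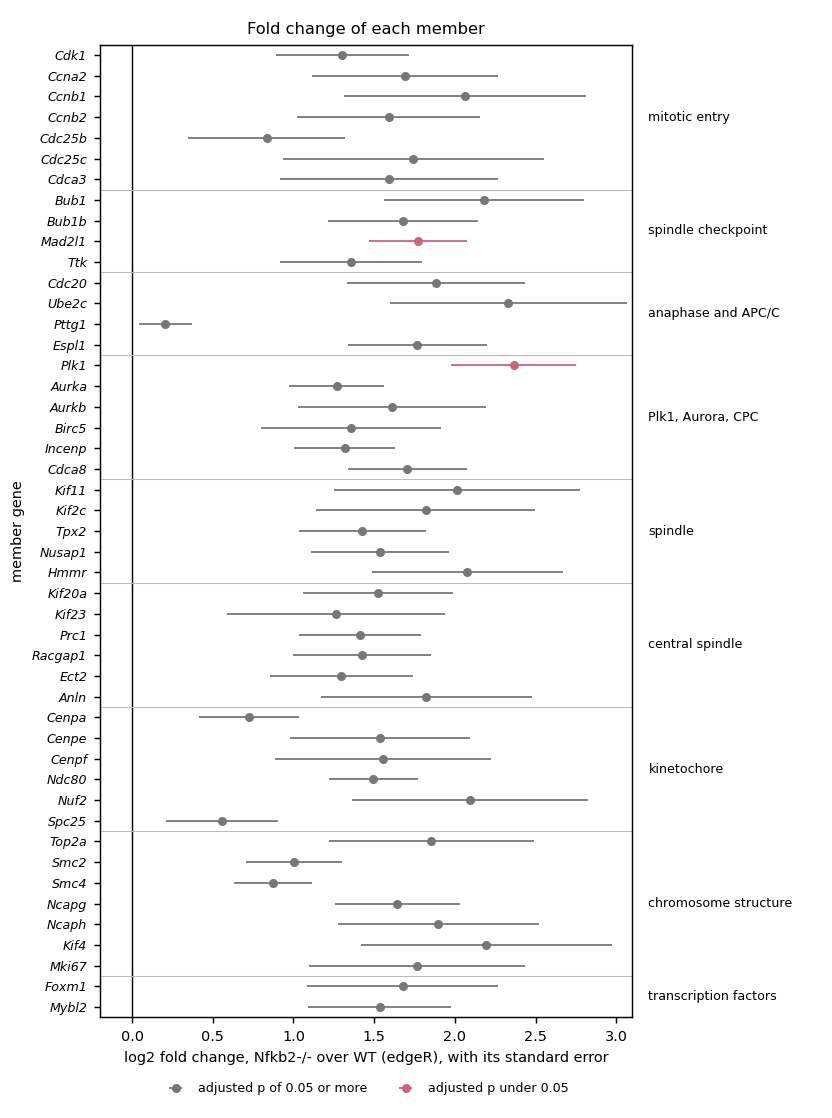
Log2 fold change (Nfkb2-/- over WT) of each of the 47 members from edgeR, with bars of 1 standard error, grouped by role. All 47 points lie above 0, from 0.20 for Pttg1 to 2.37 for Plk1, and the 2 in red, Mad2l1 and Plk1, have an adjusted p under 0.05.

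Counts of 7 members could hold reads of a gene on the opposite strand, since more than 10% of their exonic length overlaps one and the use of strand in counting is not given in the sources used here. The shares were 29.3% for Kif20a with Cdc23, 22.8% for Ube2c with Tnnc2, 15.1% for Kif4 with Pdzd11, 13.4% for Ncapg with Lcorl, 12.7% for Cdc25c with Gm3550, 12.5% for Ccna2 with Exosc9 and 11.1% for Prc1 with Rccd1. The partners of Ube2c and Cdc25c were low, with Tnnc2 at 0.207 CPM or less and Gm3550 at 0.414 CPM or less in every library. The other partners were not, with Cdc23 at 14.01 to 21.2 CPM over the 6 libraries beside 2.13 to 15.4 CPM for Kif20a, Lcorl at 51.3 to 129 CPM, Exosc9 at 16.6 to 23.5 CPM, Pdzd11 at 9.23 to 11.965 CPM and Rccd1 at 3.14 to 6.59 CPM. How many reads these genes add to Kif20a, Ncapg, Ccna2, Kif4 and Prc1 was not tested. Plk1 shared 7.09% of its exonic length with a gene at 0.264 CPM or less.

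Other genes of the cell cycle were placed beside the members as separate lists. Of 58 further mitosis genes, 2 were called higher in Nfkb2-/- and none lower, 57 had a log2 fold change above 0, and the median was 1.33. DESeq2 called 33 of the 58 higher, limma voom 9, and edgeR without WT replicate 2 called 38, against the shares of all genes given above for these tests. The 2 were Dlgap5, which acts in spindle assembly, at 5.60, 9.29 and 5.88 CPM in WT and 18.4, 18.7 and 19.1 CPM in Nfkb2-/- (log2 fold change 1.44, SE 0.23, adjusted p = 0.0426 by edgeR), and Sgo2a, a shugoshin of the centromere, with a log2 fold change of 1.80 (SE 0.30, adjusted p = 0.0466 by edgeR). The 2 most abundant genes of that list per exonic length, Hmgb2 and Cks1b, had log2 fold changes of 0.68 and 0.62. DNA replication genes came next, with 3 of 28 called higher, none lower, 26 above 0 and a median of 0.94. DESeq2 called 18 of the 28 higher, limma voom 11, and edgeR without WT replicate 2 called 16. The 3 called by edgeR were Mcm3 of the replicative helicase, Gins1 of its activating complex and the G1/S cyclin Ccne1, with log2 fold changes of 0.95, 1.84 and 1.85. Tk1 and Mcm6, the most abundant of the replication list per exonic length, had log2 fold changes of -0.28 and 0.68.

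The remaining lists were centred closer to the median of all genes. Of all 21849 genes tested, 3730 had an unadjusted p under 0.05 by edgeR, 1973 of them in the higher direction. DESeq2 called 1890 of the 21849, of which 947 were higher, and limma voom called 488, of which 245 were higher. The rest of each count lay in the lower direction. One list held 19 genes, namely APC/C subunits, the APC/C partners Ube2s and Fzr1, core checkpoint genes and Mad2l2. Many of these are also needed outside mitosis. Among the 19, none was called by edgeR, DESeq2 or limma voom, 12 had a log2 fold change above 0 and the median was 0.03. Unadjusted, 2 had a p under 0.05 in the higher and 1 in the lower direction by edgeR. Cdc27 and Anapc2, the most abundant of them per exonic length, had log2 fold changes of 0.32 and -0.14. Among 17 genes of the DREAM complex, the E2F factors and the pocket proteins, none was called by edgeR or limma voom and DESeq2 called 2 higher, while 6 had an unadjusted p under 0.05 by edgeR, all in the higher direction, and the median was 0.26. In that list Rb1 and Rbbp4, the most abundant per exonic length, had log2 fold changes of -0.23 and -0.17, and the highest value was 1.87 for E2f8, itself an E2F target. The 11 brakes on mitotic entry had a median of -0.02, with values from -1.33 for Gadd45b to 1.88 for Pkmyt1, the kinase that adds inhibitory phosphates to Cdk1. None of the brakes was called by edgeR, although 3 had an unadjusted p under 0.05 in the higher and 2 in the lower direction, while DESeq2 called 2 higher and 2 lower and limma voom called 1 lower. Cdkn1a, the p53-induced Cdk inhibitor and the most abundant of the brakes per exonic length together with Gadd45b, had a log2 fold change of -0.02. The difference between any of these lists and the members was not tested.

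**Figure D5:**
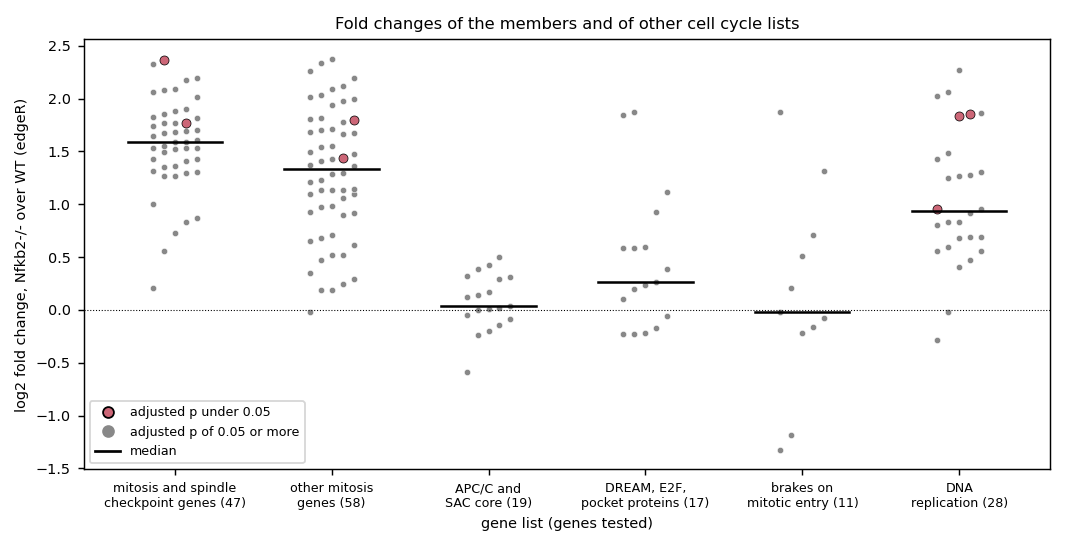
Log2 fold change (Nfkb2-/- over WT, edgeR) of single genes in 6 lists, with the number of genes tested in brackets and a black line at the median. Red points have an adjusted p under 0.05. The medians are 1.59 for the members, 1.33 for other mitosis genes, 0.94 for DNA replication genes, 0.26 for DREAM, E2F and pocket protein genes, 0.03 for the APC/C and core checkpoint genes and -0.02 for the brakes on mitotic entry.

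Markers of some cell types that such a culture can hold moved with the members among the WT libraries. Summed over 10 macrophage and monocyte genes, of which none was called by edgeR or DESeq2 or had an unadjusted p under 0.05 by edgeR, the level was 1123, 1612 and 205 CPM in WT replicates 1, 2 and 3 and 943, 1225 and 1418 CPM in Nfkb2-/-, so within each genotype the libraries took the same order as for the members. The 10 neutrophil and granulocyte progenitor genes summed to 152, 227 and 83.9 CPM in WT and to 119, 124 and 125 CPM in Nfkb2-/-. Of the 8 tested, none was called by edgeR, while 2 had an unadjusted p under 0.05 by edgeR and were called by DESeq2, in the lower direction. Counts over all genes tested in both directions are given above for these tests. The dendritic cell list took the opposite order in WT, at 7951, 6031 and 11204 CPM, and was at 8074, 7731 and 8707 CPM in Nfkb2-/-. Of its 12 genes, Itgax, which encodes CD11c, was called higher in Nfkb2-/- by edgeR, and none was called lower. Unadjusted, 4 had a p under 0.05 by edgeR in the higher and 3 in the lower direction, while DESeq2 called 2 higher and 1 lower. Log2 fold changes of the 12 ran from -1.12 to 1.99, with a median of 0.13. Nfkb2 in WT took the same order as the dendritic cell list, lowest in replicate 2. The part of these cell types in the result was not tested.

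Early progenitor genes also took the order of the dendritic cell list in WT, at 449, 269 and 599 CPM, and were at 203, 228 and 215 CPM in Nfkb2-/-. The lists were not fully separate, since Flt3 stood on both of these and Kit on the early progenitor and mast cell lists. The largest single part of that sum in every library was the transcription factor gene Sox4, while the stem and progenitor antigen Cd34 was at 1.64, 4.61 and 0.585 CPM in WT and at 27.8, 27.7 and 27.1 CPM in Nfkb2-/-, a log2 fold change of 3.59 (SE 0.64, adjusted p = 0.0536 by edgeR). Log2 fold changes of the 7 early progenitor genes ran from -1.92 to 3.59, and edgeR called none. Unadjusted, 1 had a p under 0.05 by edgeR in the higher and 1 in the lower direction. DESeq2 and limma voom each called 1 higher and 1 lower. The 8 mast cell and basophil genes summed to between 47.2 and 57.7 CPM in all 6 libraries. Of the 6 tested, Cpa3 was called lower in Nfkb2-/- by edgeR, while DESeq2 called 1 higher and 1 lower. Their log2 fold changes ran from -1.84 to 1.47. Erythroid genes summed to at most 5.82 CPM, lymphocyte genes to at most 7.06 CPM and stromal cell genes to between 1.07 and 53.5 CPM. No marker was at 0 in all 6 libraries, and the granulocyte progenitor genes Elane and Ctsg and the globin genes were under 1 CPM in each library. Whether these cells bear on the levels of the members was not tested.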

How the data were processed

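BMDC RNA was sequenced in 3 WT and 3 Nfkb2-/- libraries, and the authors deposited raw counts of reads per Ensembl gene for each library, without normalization. The labels' processing notes name HISAT2 and the mouse genome GRCm38 (mm10), while the counting tool, annotation and use of strand are not given in the sources used here. A joined table of all libraries held the same counts and was not used. Genotypes and replicate numbers were taken from the sample labels.

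Counts were named with GENCODE M21 (52073 of 56748 IDs), while unnamed IDs (1.01% to 1.75% of the counts per library) did not enter library sizes or tests. A summed count of 50 across all libraries was required (21849 genes). Counts were normalized with TMM and compared with edgeR 4.0.16 (glmQLFit and glmQLFTest, no covariates, R 4.3.3). P-values were adjusted by Benjamini-Hochberg over all genes tested. The standard error was taken as the log2 fold change divided by the square root of F. Exact permutation tests were not used for single genes, since 3 against 3 libraries cannot give a p below 0.1. The fits were tested on simulated counts. Alternatives were DESeq2 1.42.0, limma 3.58.1 voom, other scalings and filters on low counts, the replicate number as a block, other thresholds and each library left out in turn.

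The members and the other lists were chosen with earlier results of these data known, so their direction is not independent evidence. Full values are given for members called and, in each role group, for the member with the highest level per exonic length and the one with the smallest p. A gene first placed on the DNA replication list is not reported here. Of the other lists, the genes called and the 2 most abundant per exonic length were named by rule. Cdc25b, Mki67, Kif11, Pttg1, Spc24, E2f8, Gadd45b, Pkmyt1, Cd34 and Sox4 and the Mad2l1 promoter were added after their values were seen. Motifs were searched in RefSeq promoters of GRCm38.p6.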

Additional observations from a re-analysis of the deposited data

How the results depend on the processing

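All 47 members kept a log2 fold change above 0 in all 14 alternatives, and no member was called lower in any. The count of members called higher, 2 in the edgeR test as reported, was 37 with DESeq2, 8 with limma voom, 1 with DESeq2's size factors in edgeR, 0 with total counts without TMM, 3 with filterByExpr, 42 when genes with 1 count in any library were kept, 3 with at least 10 counts in every library (46 members tested) and 7 with an adjusted p under 0.1. Over all genes tested, 248 were called in either direction, 99 of them higher in Nfkb2-/-. In either direction, DESeq2 called 1890, limma voom 488, edgeR with DESeq2's size factors 239 and edgeR with total counts without TMM 247. With other filters the count was 397 with filterByExpr, 459 with at least 10 counts in every library and 1625 with 1 count in any library. In that last fit 46410 genes were tested, and their median log2 fold change was 0.60, against 0.08 in the test as reported. The median of the members was 1.54 in that fit. With 1 library left out, the members called ranged from 0 to 40, all genes called from 0 to 1248 and the median log2 fold change of the members from 1.23 to 2.35. The 40 came without WT replicate 2, and without any other library no member was called by edgeR, with 20 to 40 at an unadjusted p under 0.05. Over all genes, 270 were called without WT replicate 3, and 0 without WT replicate 1 or any Nfkb2-/- replicate. The number of members without overlap, 39, ranged from 39 to 47 with 1 library left out, a check chosen after seeing the data. The share of all genes without overlap in that direction then ranged from 15.3% to 21.3%, and fewer libraries make it more frequent by construction. With the replicate block, 0 members and 0 genes were called by edgeR (3331 genes had an unadjusted p under 0.05), and the median of the members was 1.82. The labels do not say that numbers mark a shared batch or animal, and deviations from the genotype means of same-numbered libraries had correlations of 0.262, 0.148 and 0.0224, with WT replicate 2 closer to Nfkb2-/- replicate 3 (0.164), so the numbers were not taken as pairs. The cause of these shifts was not tested. Depth limits the least abundant members most, since Cdc25c had 4 counts in WT replicate 3.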
